A study of Mus musculus with 22 samples.

Results

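Ighj1 (IGHJ1 in the tables) is one of the 4 J segments of the mouse heavy chain locus, and its rearrangements were followed here in B cells of the kidney. Members were all sequences of 22 libraries whose first J name was IGHJ1. They numbered 5074 of 17178 sequences, and 1681 of 6754 clonotypes counted library by library, where a clonotype is a set of sequences of one library with the same junction nucleotides, V segment and J segment. The libraries came from C57BL/6 wild-type female mice of 8 to 10 weeks whose bladders had been inoculated repeatedly with uropathogenic Escherichia coli (UPEC, 5 mice) or with PBS (6 mice). After 56 days, antibody to CD45 given intravenously shortly before death marked cells within vessels, and B cells were sorted from the unperfused kidney as an extravascular fraction without the label and an intravascular fraction with it. Each mouse gave 1 library of each fraction, so treatments are compared between mice and fractions within mice. Libraries held 244 to 2134 sequences. More cells of a clone and more RNA per cell cannot be told apart in them, and the sort names a place and not a B cell subset.

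A heavy chain gene is assembled by joining a D to a J segment and then a V segment to that D-J. Ighj1 is the J segment nearest to the D segments. Terminal deoxynucleotidyl transferase adds N nucleotides at both joints. It is low in fetal life, and B-1a cells of fetal origin are known for junctions without N nucleotides. Rearrangements of Ighv11-2 and Ighv12-3 to Ighj1 are the textbook receptors of B-1a cells that bind phosphatidylcholine. Ighj1 was therefore also described without these V segments, where stated, and values without such a statement include them.

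In GRCm38, Ighj1 lies on the minus strand at chr12:113429781-113429833, upstream of Ighj2, Ighj3 and Ighj4 in the direction of transcription. The germline segments from GENCODE vM21 are shown because their 5′ part ends up in the CDR3. Capitals mark the bases up to the codon of the conserved tryptophan, which Ighj1 has 19 of, Ighj2 and Ighj3 14 each and Ighj4 20.
Ighj1: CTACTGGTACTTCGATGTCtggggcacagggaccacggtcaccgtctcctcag
Ighj2: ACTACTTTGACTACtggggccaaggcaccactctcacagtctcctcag
Ighj3: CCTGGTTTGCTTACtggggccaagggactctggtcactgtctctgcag
Ighj4: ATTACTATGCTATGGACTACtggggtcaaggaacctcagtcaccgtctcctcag
The deposited J region was an exact 3′ part of the germline Ighj1 in 4654 of 5074 sequences (91.7%), and carried a single mismatch in 401.

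The 10 Ighj1 clonotypes with most sequences over all libraries, and 3 more that were among those found in most mice, are shown by their junction, from the codon of the conserved cysteine to that of the tryptophan. Capitals mark the bases that IMGT/V-QUEST assigned to Ighj1 in the clonotype's sequence with most reads. That assignment held for every sequence of each clonotype but clonotype 4, where 31 of 178 sequences had it and 147 were given 20 bases of Ighj1 with 1 mismatch. Numbers give the order by sequences for the first 10.
Ighv12-3 clonotype 1: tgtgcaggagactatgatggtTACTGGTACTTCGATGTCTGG
Ighv12-3 clonotype 2: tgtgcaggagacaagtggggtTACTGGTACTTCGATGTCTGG
Ighv11-2 clonotype 3: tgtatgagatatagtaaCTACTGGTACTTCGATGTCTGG
Ighv3-8 clonotype 4: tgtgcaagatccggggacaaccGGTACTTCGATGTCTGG
Ighv12-3 clonotype 5: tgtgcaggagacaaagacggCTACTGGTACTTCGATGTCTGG
Ighv11-2 clonotype 6: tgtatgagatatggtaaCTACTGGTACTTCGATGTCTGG
Ighv3-8 clonotype 7: tgtgcaagaaACTGGTACTTCGATGTCTGG
Ighv12-3 clonotype 8: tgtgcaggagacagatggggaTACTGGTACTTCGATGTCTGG
Ighv12-3 clonotype 9: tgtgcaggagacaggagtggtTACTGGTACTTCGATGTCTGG
Ighv12-3 clonotype 10: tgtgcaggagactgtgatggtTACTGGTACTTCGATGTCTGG
Ighv11-2 clonotype 11: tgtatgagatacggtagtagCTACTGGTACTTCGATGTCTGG
Ighv12-3 clonotype 12: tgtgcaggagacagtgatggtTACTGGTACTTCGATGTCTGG
Ighv11-2 clonotype 13: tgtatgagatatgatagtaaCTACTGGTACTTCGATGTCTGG
Of the 13, 7 used Ighv12-3, and these ended in 21 or 22 bases of Ighj1 with a CDR3 of 36 nt. The Ighv11-2 junctions kept all 22 bases of Ighj1 up to and including the tryptophan codon. Clonotypes 3 and 6 differed at 1 position, and so did clonotypes 1 and 10 and clonotypes 10 and 12. Clonotype 7 was the shortest, with a CDR3 of 24 nt and no D segment assigned. N nucleotides as assigned numbered 0 in clonotypes 1, 2, 3, 6, 8, 11 and 12, 1 in clonotypes 9 and 13, 2 in clonotype 10 and 3 in clonotypes 4 and 5. Clonotypes 1 and 10, though 1 position apart, were thus given 0 and 2. N nucleotides read as D bases cannot be told apart from D bases in these numbers.

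Ighj1 sequences made up between 10.98% and 45.6% of an extravascular library and between 13.6% and 26.7% of an intravascular library. In PBS mice 1 to 6 the extravascular shares were 39.4%, 21.1%, 45.6%, 38.7%, 44.1% and 10.98%, and the intravascular shares 20.3%, 25.4%, 26.7%, 18.6%, 23.5% and 13.6%. The extravascular library was higher in 4 of 6 mice, and lower in mice 2 and 6. In UPEC mice 1 to 5 the extravascular shares were 28.3%, 19.7%, 44.9%, 26.8% and 27.3%, and the intravascular shares 24.2%, 26.2%, 20.9%, 26.1% and 19.6%. Here 4 of 5 mice were higher in the extravascular library. In mice 1 and 4 the intravascular value lay within the counting interval of the extravascular one, which ran from 23.0% to 34.2% and from 23.7% to 30.1% (95% Wilson intervals, counting error only). The groups overlapped in every comparison of Ighj1 shares.

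**Figure D1:**
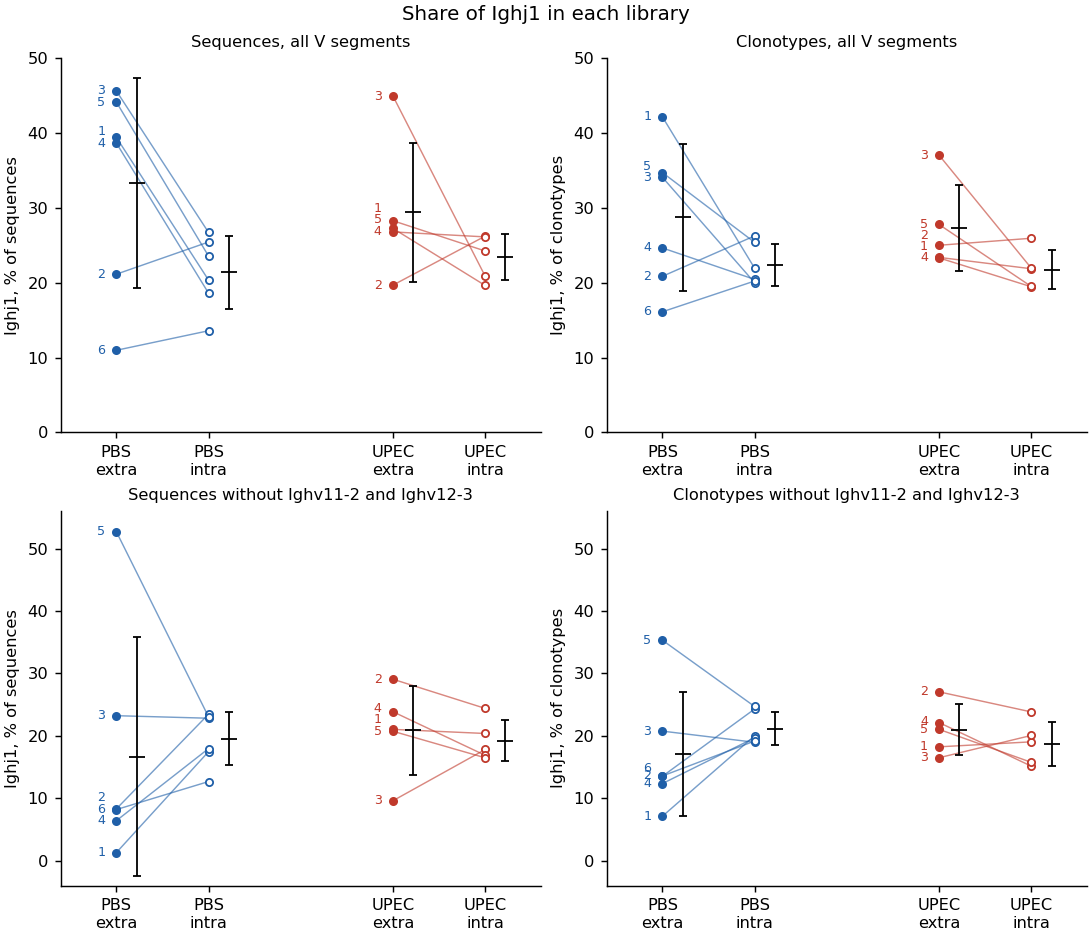
Share of Ighj1 in each library, in % of sequences (left) or clonotypes (right), with all V segments (top) and without Ighv11-2 and Ighv12-3 (bottom). Points are libraries, filled for extravascular and open for intravascular, lines join the libraries of a mouse (numbered at the left), and black bars give mean ± SD for 6 PBS or 5 UPEC mice; the extravascular PBS shares of sequences span 10.98% to 45.6% with all V segments and 1.28% to 52.7% without the pair.

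In PBS mice, extravascular libraries had a mean share of 33.3% ± 14.0 (SD, n = 6) and intravascular ones of 21.4% ± 4.88 (SD, n = 6), a difference of 11.95 percentage points (SD 11.96; exact two-sided signed-rank test, p = 0.156). After UPEC the means were 29.4% ± 9.33 (SD, n = 5) and 23.4% ± 3.03 (SD, n = 5), a difference of 5.97 points (exact signed-rank test, p = 0.3125; with 5 mice the smallest possible p is 0.0625). Without UPEC mouse 3 this difference was 1.45 points. Counted by clonotype, the PBS means were 28.8% ± 9.82 and 22.4% ± 2.77 (4 of 6 mice higher, exact signed-rank test, p = 0.219), and the UPEC means 27.3% ± 5.73 and 21.7% ± 2.64 (4 of 5 mice higher, exact signed-rank test, p = 0.125). These clonotype differences of 6.39 and 5.56 points were 1.04 points (exact signed-rank test, p = 0.6875) and 2.35 points with junctions 1 nt apart merged. They were 3.62 points without PBS mouse 1 and 3.18 points without UPEC mouse 3. None of these differences was past the threshold of 0.05. UPEC minus PBS was -3.94 points in extravascular libraries (exact Mann-Whitney U test, p = 0.662) and 2.04 points in intravascular libraries (p = 0.537 by the same exact test), and the change of the fraction difference with treatment was -5.98 points (exact permutation test, p = 0.409). Leaving out 1 mouse moved the extravascular treatment difference between -8.41 points (without PBS mouse 6) and -1.48 points (without PBS mouse 3), the intravascular one between 0.487 points (without PBS mouse 6) and 3.11 points (without PBS mouse 3), and the change between -10.50 points (without UPEC mouse 3) and -2.85 points (without UPEC mouse 2). By reads, the intravascular treatment difference was 5.90 points (exact Mann-Whitney U test, p = 0.0823). Without the leading clonotype of each library, the extravascular treatment difference was -0.128 points and the change -1.45 points. With 1 nt variants of sequences merged, the extravascular treatment difference was -8.14 points and the change -9.96 points.

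Among the J segments, the order of mean shares in PBS extravascular libraries was Ighj1, Ighj2 (32.5% ± 16.0), Ighj4 (24.8% ± 11.6) and Ighj3 (9.36% ± 8.66, each SD, n = 6). Ighj1 and Ighj2 lay within their spread of each other, and Ighj4 within that of both. In PBS intravascular libraries Ighj2 led with 29.4% ± 5.74, followed by Ighj3 (25.1% ± 13.6), Ighj4 (24.2% ± 5.12) and Ighj1. No neighbours in that order differed by more than their SDs. Ighj3 was the J segment whose share was lower in the extravascular library of 6 of 6 PBS mice, by 15.7 points of sequences and 8.31 points of clonotypes (exact signed-rank tests, p = 0.03125 each, the smallest that 6 mice allow, not adjusted over the 4 segments). For Ighj2 and Ighj4 the extravascular library was higher in 3 and 4 of 6 PBS mice.

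Ighj1 was found with 59 of the 80 V segments, and 11 of them held 93.5% of its sequences and 82.3% of its clonotypes. Pooled over all libraries, which differed in depth, Ighv12-3 was the most frequent partner, with 2231 Ighj1 sequences (44.0%) and 368 clonotypes (21.9%). Ighv3-8 followed with 1034 sequences and 287 clonotypes, Ighv11-2 with 544 and 139, and Ighv3-1 with 321 and 139. The remaining named partners were Ighv3-6 (147 sequences, 120 clonotypes), Ighv1s22 (129 and 99), Ighv15-2 (98 and 60), Ighv3-3 (83 and 30), Ighv5-17 (64 and 60), Ighv13-2 (56 and 45) and Ighv1-48 (36 and 36). In means over libraries, Ighv12-3 led Ighv3-8 only in extravascular libraries (46.6% against 23.4% of Ighj1 sequences in PBS and 27.1% against 23.3% in UPEC mice). In intravascular libraries Ighv3-8 led, with 28.5% against 7.82% in PBS and 24.8% against 17.3% in UPEC mice. By clonotype the intravascular means were 21.1% against 5.02% and 20.9% against 13.7%.

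The V segments differed in how often they used Ighj1. It was the J segment of 544 of 550 Ighv11-2 sequences (98.9%) and of 139 of 144 Ighv11-2 clonotypes (96.5%). For Ighv12-3 it was that of 69.4% of sequences and 66.5% of clonotypes, and for Ighv15-2 of 45.8% and 41.4%. Ighv3-8 used it in 28.2% of sequences and 29.6% of clonotypes, Ighv1s22 in 27.1% and 23.0%. Ighv3-6 and Ighv3-1 were at 14.7% and 16.2% of clonotypes. The choice of Ighj1 by Ighv12-3 also varied between libraries: over the 16 libraries with at least 10 Ighv12-3 clonotypes, Ighj1 was used by 0 to 98.2% of them, with a median of 59.3%. Among PBS extravascular libraries, 209 of 258 Ighv12-3 clonotypes had Ighj1 (81.0% pooled; mean over mice 73.8% ± 37.4, SD, n = 6), against 22 of 54 (40.7% pooled; mean 40.9% ± 18.1, SD, n = 6) in intravascular libraries. In UPEC mice the means were 45.7% ± 32.1 and 60.7% ± 16.3 (SD, n = 5 each). The spread between mice covers these differences, and they were not tested.

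**Figure D2:**
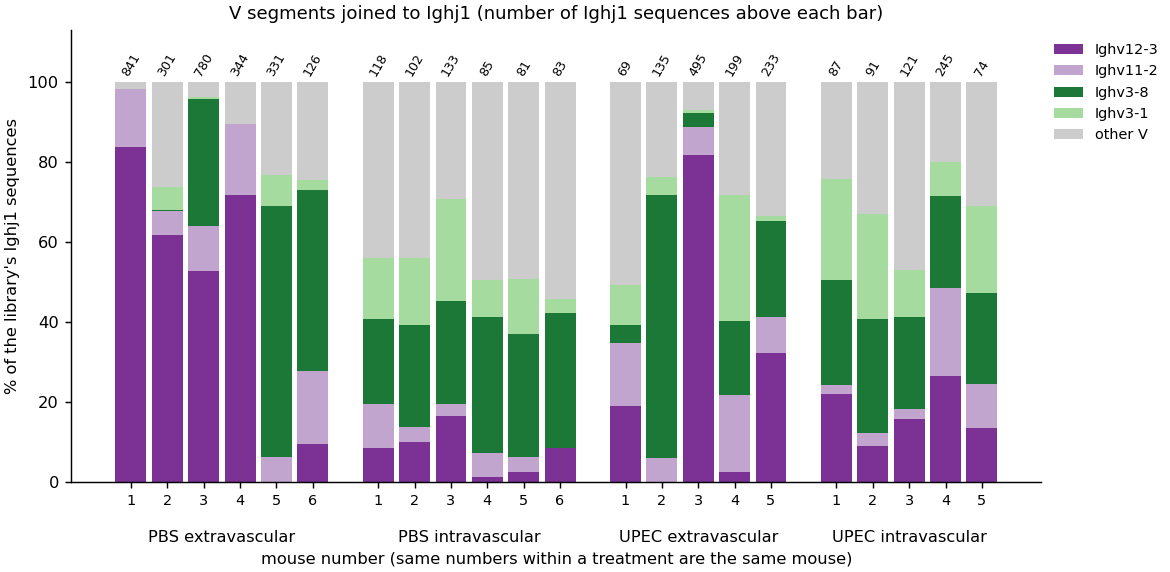
V segments joined to Ighj1 in each library, as % of the library's Ighj1 sequences, whose number stands above each bar; bars are single libraries in 4 groups by treatment and fraction. Ighv12-3 holds over 50% of the bar in PBS extravascular mice 1 to 4 and UPEC extravascular mouse 3, and Ighv3-8 in PBS extravascular mouse 5 and UPEC extravascular mouse 2.

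Ighv12-3 made up 83.7%, 61.8%, 52.7%, 71.8%, 0 and 9.52% of the Ighj1 sequences in the extravascular libraries of PBS mice 1 to 6. In the intravascular libraries of the same mice it made up 8.47%, 9.80%, 16.5%, 1.18%, 2.47% and 8.43%. Mice 1 to 4 were far higher in the extravascular library, mouse 6 differed little, and in mouse 5 no Ighv12-3 sequence with Ighj1 was found among 331. After UPEC, the extravascular values were 18.8%, 0, 81.8%, 2.51% and 32.2% in mice 1 to 5, and the intravascular values 21.8%, 8.79%, 15.7%, 26.5% and 13.5%. Only mice 3 and 5 were higher in the extravascular library.

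Ighv11-2 was present among the Ighj1 sequences of 21 of the 22 libraries. Its extravascular values in PBS mice were 14.5%, 5.98%, 11.3%, 17.7%, 6.04% and 18.3%, and its intravascular values 11.02%, 3.92%, 3.01%, 5.88%, 3.70% and 0. It was higher in the extravascular library of each of the 6 mice. In UPEC mice the extravascular values were 15.9%, 5.93%, 7.07%, 19.1% and 9.01%, and the intravascular values 2.30%, 3.30%, 2.48%, 22.04% and 10.8%, higher in the extravascular library in 3 of 5.

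Together, Ighv11-2 and Ighv12-3 made up 90.5%, 42.3%, 49.6%, 58.0%, 8.33% and 18.4% of Ighj1 clonotypes in the extravascular libraries of PBS mice 1 to 6. The intravascular values were 12.8%, 13.5%, 7.46%, 6.15%, 7.58% and 7.41%. The share was higher in the extravascular library of 6 of 6 mice, by less than 1 point in mouse 5, and the groups overlapped through mouse 5. The means were 44.5% ± 29.4 (SD, n = 6) and 9.15% ± 3.14 (SD, n = 6), a difference of 35.4 points (SD 28.1; exact signed-rank test, p = 0.03125, 0.1875 after Benjamini-Hochberg adjustment over 12 measures). The difference was 20.8 points when clonotypes 1 nt apart in the junction were merged. Over sequences the means were 58.9% ± 35.6 and 12.4% ± 6.10 (5 of 6 mice higher, exact signed-rank test, p = 0.0625), mouse 5 having 6.04% in the extravascular and 6.17% in the intravascular library. This difference of 46.5 points was 47.3 points with 1 nt variants of sequences merged and 44.1 points without the leading clonotype of each library (exact signed-rank tests, p = 0.03125 each).

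In UPEC mice 1 to 5, the extravascular shares of Ighj1 clonotypes with these V segments were 29.8%, 10.4%, 70.0%, 9.64% and 33.8%, against 19.1%, 13.2%, 11.1%, 29.1% and 25.9% in intravascular libraries. Mouse 3 stood highest and mice 2 and 4 were lower in the extravascular library, so 3 of 5 mice were higher (difference 11.03 points, exact signed-rank test, p = 0.62; -0.931 points without mouse 3). The change of the fraction difference with treatment was -24.3 points (exact permutation test, p = 0.188; -36.3 points and p = 0.0429 without UPEC mouse 3). Within intravascular libraries, the share was 19.7% ± 7.81 (SD, n = 5) after UPEC and 9.15% ± 3.14 (SD, n = 6) after PBS, a difference of 10.5 points (exact Mann-Whitney U test, p = 0.0303, 0.121 after adjustment over the 12 measures; 8.97 points and p = 0.0519 with at least 3 reads). Leaving out PBS mouse 3, 4, 5 or 6, or UPEC mouse 1, 4 or 5, took this p to between 0.0556 and 0.0667 by the same exact test. Over sequences the difference was 13.1 points (exact Mann-Whitney U test, p = 0.0823; 12.7 points with at least 3 reads and 14.2 points with 1 nt variants merged, p = 0.0303 each). It was 11.7 points by reads (exact Mann-Whitney U test, p = 0.177) and 7.28 points without UPEC mouse 4 (p = 0.171, same exact test). UPEC mice 4 and 5 and mouse 1 lay above all PBS mice, while mice 2 and 3 lay within their range. In extravascular libraries the treatments differed by -13.8 points (exact Mann-Whitney U test, p = 0.537; -4.59 points without PBS mouse 1 and -23.6 points without UPEC mouse 3).

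**Figure D3:**
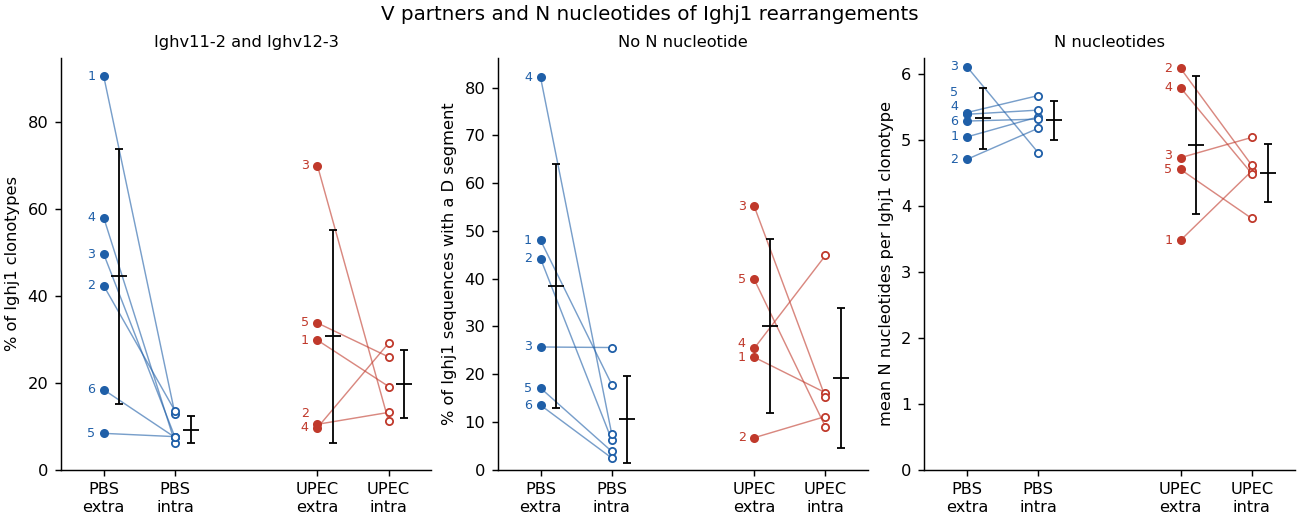
For each library, the % of Ighj1 clonotypes with Ighv11-2 or Ighv12-3 (left), the % of Ighj1 sequences with a D segment that have no N nucleotide (middle) and the mean number of N nucleotides per Ighj1 clonotype (right); symbols and black mean ± SD bars are as in the plot of Ighj1 shares. PBS mice have means of 44.5% (extravascular) and 9.15% (intravascular) in the first panel and of 38.4% and 10.5% in the second, each higher extravascularly in 6 of 6 mice, while the third has means of 5.32 and 5.29.

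Without Ighv11-2 and Ighv12-3, Ighj1 sequences made up 1.28%, 8.28%, 23.2%, 6.39%, 52.7% and 8.18% of the remaining sequences in the extravascular libraries of PBS mice 1 to 6. Their intravascular libraries had 17.5%, 23.5%, 22.8%, 17.9%, 23.0% and 12.7%. Without the pair, 4 of 6 mice were lower in the extravascular library, mouse 3 was close to equal, and mouse 5 was more than 2 times higher. The means were 16.7% ± 19.1 and 19.6% ± 4.30 (SD, n = 6; difference -2.89 points, exact signed-rank test, p = 0.5625; -0.229 without mouse 1 and -9.40 without mouse 5). Counted by clonotype they were 17.1% ± 9.93 and 21.1% ± 2.63 (difference -4.03 points, 4 of 6 mice lower, exact signed-rank test, p = 0.3125). The change of this clonotype difference with treatment was 6.26 points (exact permutation test, p = 0.182). With junctions 1 nt apart merged, a setting added after seeing the data, the clonotype difference was -4.78 points (exact signed-rank test, p = 0.03125). Its change with treatment was then 5.80 points (exact permutation test, p = 0.0216). In UPEC mice the clonotype means were 20.98% ± 4.06 and 18.8% ± 3.52 (SD, n = 5; exact signed-rank test, p = 0.4375). Treatments differed by 3.89 points in extravascular libraries (exact Mann-Whitney U test, p = 0.177; 7.53 points and p = 0.0317 without PBS mouse 5, 1.89 without PBS mouse 1 and 2.37 without UPEC mouse 2) and by -2.37 points in intravascular libraries (p = 0.329, same exact test).

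In PBS mouse 5, Ighv3-8 held 62.8% of the extravascular Ighj1 sequences. In the extravascular libraries of PBS mice 1 to 6, Ighv3-8 made up 0, 0.332%, 31.9%, 0, 62.8% and 45.2% of Ighj1 sequences, and in their intravascular libraries 21.2%, 25.5%, 25.6%, 34.1%, 30.9% and 33.7%. The intravascular values were within a narrow band and the extravascular ones spread to both sides of it. UPEC extravascular libraries had 4.35%, 65.9%, 3.43%, 18.6% and 24.03%, and intravascular ones 26.4%, 28.6%, 23.1%, 22.9% and 23.0%. Ighv3-1 held on average 2.75% ± 3.29 (SD, n = 6) of extravascular Ighj1 sequences from PBS mice and 14.0% ± 7.37 (SD, n = 6) of intravascular ones, and of 9.63% ± 12.9 and 18.7% ± 8.13 (SD, n = 5) in those of UPEC mice.

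Over the 22 libraries, the V segments whose share of sequences was most like that of Ighj1 were Ighv12-3 (Spearman's rho = 0.70) and Ighv11-2 (0.60), followed at a distance by Ighv1-55 (0.22), Ighv1-69 (0.22) and Ighv7-3 (0.18), of 28 segments with at least 50 sequences. Within the 11 extravascular libraries rho was 0.54 for Ighv12-3 and 0.60 for Ighv11-2, and within the 11 intravascular libraries 0.58 and 0. These values describe shares that come from the same libraries and, for the first 2 segments, largely from the same sequences.

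Single clonotypes made up much of the Ighj1 sequences in extravascular libraries. The leading Ighj1 clonotype held 25.6%, 38.2%, 22.7%, 63.4%, 53.8% and 28.6% of the Ighj1 sequences in PBS mice 1 to 6. In their intravascular libraries the leading one held between 2.94% and 15.7%. It used Ighv12-3 in the extravascular libraries of mice 1 to 4 and Ighv3-8 in those of mice 5 and 6. After UPEC the leading clonotype held 7.25%, 49.6%, 26.9%, 17.1% and 21.5% of extravascular Ighj1 sequences. Clonotypes of at least 20 sequences numbered 26 of 538 in PBS extravascular libraries and held 73.5% of the Ighj1 sequences there, 14 of them with Ighv12-3, 5 with Ighv11-2 and 4 with Ighv3-8. There was none among 427 Ighj1 clonotypes in PBS intravascular libraries, 11 of 358 in UPEC extravascular and 3 of 358 in UPEC intravascular libraries. With other J segments such clonotypes numbered 41 of 1342, 2 of 1484, 23 of 949 and 6 of 1298 in PBS extravascular, PBS intravascular, UPEC extravascular and UPEC intravascular libraries, and held 67.4%, 11.2%, 40.9% and 12.5% of those sequences. In both sets the extravascular libraries, which were deeper in PBS mice, held more of them. Clonotypes of a single sequence made up 85.5%, 80.6%, 75.7% and 79.1% of Ighj1 clonotypes in these 4 groups, and 83.9%, 83.3%, 81.9% and 85.7% of clonotypes with other J segments. Merging junctions 1 nt apart took Ighj1 clonotypes from 1681 to 1244, and those of all J segments from 6754 to 5558. Unmerged counts therefore include junctions 1 nt from another, and the share of single sequences was not recounted after merging. Libraries differed in depth, with 750 to 2134 sequences in PBS extravascular and 344 to 611 in PBS intravascular libraries, and its part in the number of large clonotypes was not tested.

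The mean number of sequences per Ighj1 clonotype in PBS extravascular libraries was 4.66 ± 1.48 (SD, n = 6), against 3.98 ± 1.56 for the other J segments (4 of 6 mice higher, exact signed-rank test, p = 0.4375). In PBS intravascular libraries the values were 1.43 ± 0.303 and 1.56 ± 0.462. Without Ighv11-2 and Ighv12-3 the direction in PBS extravascular libraries turned. Ighj1 clonotypes then had 2.58 ± 1.44 sequences, against 3.85 ± 1.67 (SD, n = 6; 4 of 6 mice lower, exact signed-rank test, p = 0.4375). In PBS intravascular libraries the difference without the pair was -0.194. In UPEC mice Ighj1 differed by 0.205 in extravascular and 0.214 in intravascular libraries, and by -0.185 and 0.0524 without the pair. Each of these differences lay within the spread between mice.

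Several of the clonotypes shown by their junctions came from 1 mouse, and others were found in up to 11. Clonotype 2 had 218 sequences, all from PBS mouse 4 and extravascular. Clonotypes 4, 5, 7, 8 and 9 also came from a single extravascular library each, with 178, 177, 140, 115 and 115 sequences. Of clonotype 1, PBS mouse 1 gave 215 sequences and UPEC mouse 3 gave 133, all extravascular, with 9 more in the libraries of UPEC mouse 1 and 1 in the intravascular library of UPEC mouse 3. Clonotype 12, 2 positions from clonotype 1, was in 6 mice, with 50 of its 67 sequences in the extravascular library of UPEC mouse 5.

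Clonotype 3, an Ighv11-2 rearrangement without N nucleotides, was found in all 11 mice and in 21 of the 22 libraries. In the extravascular libraries of PBS mice 1 to 6 it had 43, 1, 60, 9, 4 and 5 sequences, and in the intravascular ones 6, 1, 1, 2, 1 and 0. In UPEC mice it had 3, 2, 13, 34 and 1 extravascular and 1, 1, 1, 9 and 1 intravascular sequences. Clonotype 6 was found in 10 mice, with 41 of its 170 sequences in the intravascular library of UPEC mouse 4. Clonotype 11, with Ighd1-1 and no N nucleotide, was in 8 mice but had 29 sequences in all.

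Of 1561 distinct Ighj1 clonotypes over all mice, 37 (2.37%) were found in at least 2 mice, against 12 of 5027 (0.239%) with the other J segments. The 37 held 1040 of the 5074 Ighj1 sequences (20.5%), and 17 of them had no N nucleotide. Nearly all were Ighv11-2 (18 of 63 distinct clonotypes) or Ighv12-3 (18 of 331), and 1 of 1167 Ighj1 clonotypes with another V segment was shared. With another V segment and another J segment, 9 of 4848 were shared. Libraries differed in depth, and its part in these counts was not tested.

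Within a mouse, between 0 and 8 Ighj1 clonotypes were found in both libraries. The counts were 7, 2, 2, 3, 1 and 0 in PBS mice 1 to 6, where 12 of the 15 used Ighv11-2 and 2 used Ighv12-3. They were 7, 3, 6, 8 and 5 in UPEC mice 1 to 5, where 15 of the 29 used Ighv11-2 and 10 used Ighv12-3. As a share of the extravascular Ighj1 clonotypes, this was 0 to 5.11% in PBS mice and 6.00% to 14.9% in UPEC mice, and as a share of the intravascular ones 0 to 8.14% and 3.95% to 10.3%. With other J segments, 2, 0, 0, 1, 1 and 0 clonotypes were in both libraries of PBS mice 1 to 6 (up to 1.06% of the extravascular and 0.654% of the intravascular ones), and 2, 0, 0, 24 and 1 in those of UPEC mice 1 to 5 (up to 8.79% and 7.34%, in mouse 4). The difference between treatments in these counts was not tested, nor was the part of depth in them.

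Ighd1-1, the D segment at the far end of the D cluster from the J segments, was the most frequent D partner, in 673 of the 1642 Ighj1 clonotypes with a D segment (41.0%). Next came Ighd2-3 (13.7%), Ighd4-1, the D segment next to the J cluster (8.95%), Ighd2-5 (6.09%), Ighd2-4 (5.66%), Ighd2-1 (4.87%), Ighd2-2 (2.68%), Ighd1-3 (2.50%) and Ighd1-2 (2.19%). With the other J segments, Ighd1-1 made up 30.98% and Ighd2-3 11.7% of 4932 clonotypes.

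By family, and without Ighv11-2 and Ighv12-3, Ighd1 segments made up 52.5% ± 9.43 (SD over 22 libraries) of Ighj1 clonotypes and 35.5% ± 4.22 of those with other J segments, and the Ighj1 value was the higher in 21 of 22 libraries. Ighd2 segments made up 31.8% ± 7.58 and 42.6% ± 4.94, with Ighj1 higher in 2 of 22, and Ighd3 segments 4.598% ± 3.30 and 10.4% ± 3.95, with Ighj1 higher in 2 of 22. Ighd4 was 9.05% ± 4.11 and 8.80% ± 2.71, with Ighj1 higher in 11 of 22. These counts are a description, since the 2 libraries of a mouse are not independent. The Ighd1 share without the pair lay between 49.4% and 57.5% in the means of the 4 groups of libraries, each within the spread of the others. Pooled over all libraries, which differed in depth, the pair had D partners of its own. The extravascular library of PBS mouse 1 gave 124 of the 507 Ighj1 clonotypes of the pair. Near-identical junctions, such as those of clonotypes 1, 10 and 12, all with Ighd2-3, were counted separately. Of 139 Ighv11-2 clonotypes with Ighj1, 35.3% used Ighd2-5, 30.2% Ighd1-1 and 23.7% Ighd2-1, and of 361 Ighv12-3 clonotypes with a D segment, 38.2% used Ighd2-3, 18.6% Ighd1-1 and 11.4% Ighd4-1. Short D stretches can match several segments, so names within a family are less certain than the family.

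The CDR3 of Ighj1 clonotypes was longer than that of the other J segments in 22 of 22 libraries, by 0.0606 to 5.19 nt and on average by 2.90 nt. In PBS extravascular libraries the means were 37.4 nt ± 1.36 (SD, n = 6) and 34.7 nt ± 1.14, in PBS intravascular libraries 38.8 nt ± 0.790 and 35.3 nt ± 0.588 (each 6 of 6 mice longer, exact signed-rank tests, p = 0.03125, 0.182 after adjustment over 32 tests). In UPEC mice they were 37.8 nt ± 1.28 and 35.2 nt ± 1.12 in extravascular, and 38.3 nt ± 0.968 and 35.5 nt ± 0.449 in intravascular libraries (each 5 of 5 longer, exact signed-rank tests, p = 0.0625, the smallest possible). Without Ighv11-2 and Ighv12-3 the difference was 3.74 nt on average and again positive in 22 of 22 libraries.

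By single J segment, Ighj1 clonotypes were longer than Ighj2 clonotypes in 22 of 22 libraries (mean difference 4.38 nt) and than Ighj3 clonotypes in 22 of 22 (4.16 nt). Against Ighj4 the mean difference was 0.00607 nt, with Ighj1 longer in 13 of 22 libraries. The germline bases before the tryptophan codon, printed above, number 19 for Ighj1, 14 for Ighj2 and Ighj3 and 20 for Ighj4.

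**Figure D4:**
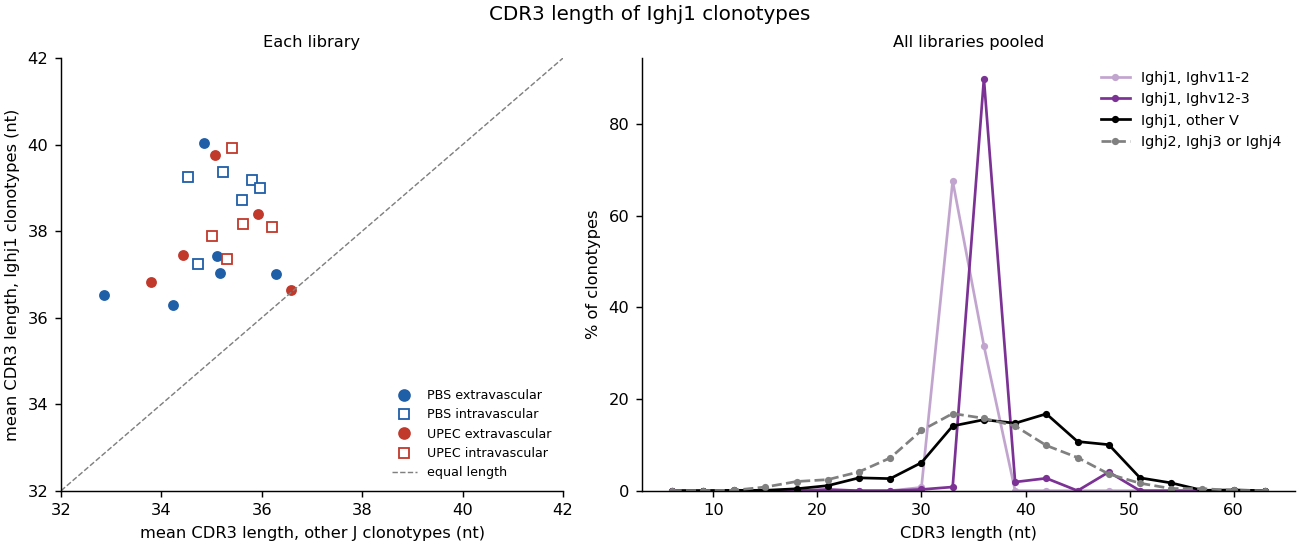
CDR3 length in nt of Ighj1 clonotypes. Left, the mean of each of the 22 libraries against the mean of its clonotypes with other J segments, all points above the dashed line of equal length, 1 of them by 0.0606 nt; right, the distribution over clonotypes of all libraries, where Ighv12-3 with Ighj1 peaks at 36 nt (89.9%), Ighv11-2 with Ighj1 at 33 nt (67.6%) and Ighj1 with other V segments at 42 nt (16.8%).

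The length distributions differed by V partner. Of 368 Ighv12-3 clonotypes with Ighj1, 89.9% had a CDR3 of 36 nt, and of 139 Ighv11-2 clonotypes 67.6% had 33 nt. The 1174 Ighj1 clonotypes with another V segment ranged from 12 to 60 nt with a median of 39 nt, and no length held more than 16.8% of them. Among the frequent partners, the mean was 37.6 nt for Ighv3-8, 37.8 nt for Ighv3-1, 42.6 nt for Ighv1s22 and 44.1 nt for Ighv1-48.

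Between fractions, the CDR3 length over Ighj1 clonotypes differed by -1.41 nt in PBS mice (37.4 against 38.8 nt, 4 of 6 mice lower, exact signed-rank test, p = 0.156), and by -0.355 nt without the pair of V segments (p = 0.6875, same exact test). In UPEC mice the differences were -0.479 nt (exact signed-rank test, p = 0.62) and -0.159 nt (p = 0.8125, same exact test). Treatments differed by 0.42 nt in extravascular and by -0.508 nt in intravascular libraries (exact Mann-Whitney U tests, p = 0.537 and 0.429). Several of these directions did not hold under other settings. The PBS difference without the pair turned to 0.737 nt with at least 3 reads, 0.194 nt with junctions 1 nt apart merged and 0.033 nt without PBS mouse 5. The UPEC difference turned to 0.0232 nt without UPEC mouse 3, and without the pair to 0.108 nt when ambiguous names were left out. The extravascular treatment difference turned to -0.114 nt with junctions merged and to -0.0652 nt without UPEC mouse 2.

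Ighj1 clonotypes carried 5.32 ± 0.467 N nucleotides in PBS extravascular and 5.29 ± 0.291 in PBS intravascular libraries (SD, n = 6; 5 of 6 mice lower in the extravascular library, exact signed-rank test, p = 0.4375). The PBS mouse 3 pair stood apart, since its extravascular library had the most (6.11) and its intravascular library the fewest (4.81) of their groups. After UPEC the means were 4.93 ± 1.04 and 4.50 ± 0.442 (SD, n = 5; exact signed-rank test, p = 0.4375). Within extravascular libraries the treatments differed by -0.398 (exact Mann-Whitney U test, p = 0.537). The direction of these 3 differences depended on the processing. The PBS fraction difference of 0.030 turned to -0.851 with junctions 1 nt apart merged (exact signed-rank test, p = 0.0625), to -0.169 with P nucleotides counted too and to -0.225 without PBS mouse 3. The UPEC fraction difference of 0.431 turned to -0.0742 with at least 3 reads, and the extravascular treatment difference to 0.238 with junctions merged. Weighted by sequence, Ighj1 carried 2.72 ± 1.35 N nucleotides in PBS extravascular and 4.89 ± 0.736 in PBS intravascular libraries (SD, n = 6). In UPEC mice it carried 3.93 ± 1.86 and 3.83 ± 0.975 (SD, n = 5). These means by sequence were not tested.

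Within intravascular libraries, PBS mice 1 to 6 had 5.35, 5.18, 4.81, 5.45, 5.67 and 5.31 N nucleotides per Ighj1 clonotype, and UPEC mice 1 to 5 had 4.53, 4.61, 5.04, 4.49 and 3.81. All PBS mice but mouse 3 lay above all UPEC mice. The difference was -0.800 (exact Mann-Whitney U test, p = 0.00866, 0.104 after adjustment over the 12 measures). Without Ighv11-2 and Ighv12-3 it was 5.12 against 5.65 (exact Mann-Whitney U test, p = 0.0303, 0.121 after adjustment). Leaving out PBS mouse 1, 2, 4 or 5, or UPEC mouse 1, 2 or 5, took that p to between 0.0556 and 0.0667 by the same exact test. It was 0.0519 with junctions 1 nt apart merged and 0.0823 with P nucleotides counted too (same exact test). Among sequences with at least 3 reads the difference was -0.267 (exact Mann-Whitney U test, p = 0.502), and without the pair it turned to 0.0991. The share of Ighj1 clonotypes with Ighv11-2 or Ighv12-3, which have fewer N nucleotides, was above the PBS range in the intravascular libraries of UPEC mice 1, 4 and 5 and within it in those of mice 2 and 3, and its part in the first value was not tested.

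Set against the other J segments of the same library, Ighj1 clonotypes differed in N nucleotides by -0.398 in PBS extravascular, -0.477 in PBS intravascular, -0.794 in UPEC extravascular and -1.43 in UPEC intravascular libraries. They were lower in 5 of 6, 5 of 6, 4 of 5 and 5 of 5 mice (exact signed-rank tests, p = 0.4375, 0.0938, 0.3125 and 0.0625). With the pair of V segments left out, the differences were -0.0274, -0.156, -0.176 and -0.853.

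N nucleotides were absent from 59.0% of Ighv11-2 clonotypes with Ighj1, 19.7% of those of Ighv12-3, 5.60% of Ighj1 clonotypes with another V segment and 6.27% of clonotypes with another J segment. The mean numbers were 1.54, 4.67, 5.63 and 5.82. At least 10 N nucleotides were assigned in 2.88%, 18.0%, 15.1% and 15.8% of these sets. With Ighv12-3, 89.9% of Ighj1 clonotypes had a CDR3 of 36 nt. Their missing Ighj1 bases had a mean of 4.82 and a median of 1. N nucleotides and Ighj1 bases that the annotation left unassigned cannot be told apart in these counts.

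Weighted by sequence, the share of Ighj1 without N nucleotides was 48.0%, 44.2%, 25.7%, 82.2%, 17.1% and 13.5% in the extravascular libraries of PBS mice 1 to 6, and 17.8%, 6.19%, 25.6%, 7.41%, 3.80% and 2.41% in the intravascular ones. It was higher in the extravascular library of 6 of 6 mice, hardly so in mouse 3. Clonotype 2, assigned no N nucleotide, held 218 of the 344 extravascular Ighj1 sequences of mouse 4. The means were 38.4% ± 25.6 (SD, n = 6) and 10.5% ± 9.15, a difference of 27.9 points (exact signed-rank test, p = 0.03125, 0.1875 after adjustment over the 12 measures). It was 26.4 points with at least 3 reads, 29.6 points by reads and 28.2 points without ambiguous names (exact signed-rank tests, p = 0.0625 each), and 18.5 points without PBS mouse 4. Over clonotypes the means were 15.3% ± 5.76 and 8.05% ± 5.25 (5 of 6 mice higher, exact signed-rank test, p = 0.156). Without Ighv11-2 and Ighv12-3 the clonotype means were 8.36% ± 9.23 and 4.89% ± 5.08 in PBS mice (SD, n = 6). They were 5.55% ± 2.80 and 4.09% ± 2.43 in UPEC mice (SD, n = 5), and fractions were not tested for these. In UPEC mice the shares of sequences were 23.5%, 6.67%, 55.2%, 25.4% and 39.8% in extravascular and 16.1%, 11.1%, 15.1%, 44.9% and 8.96% in intravascular libraries, with 3 of 5 mice higher in the former (exact signed-rank test, p = 0.4375). The change of the fraction difference with treatment was -17.0 points (exact permutation test, p = 0.314).

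**Figure D5:**
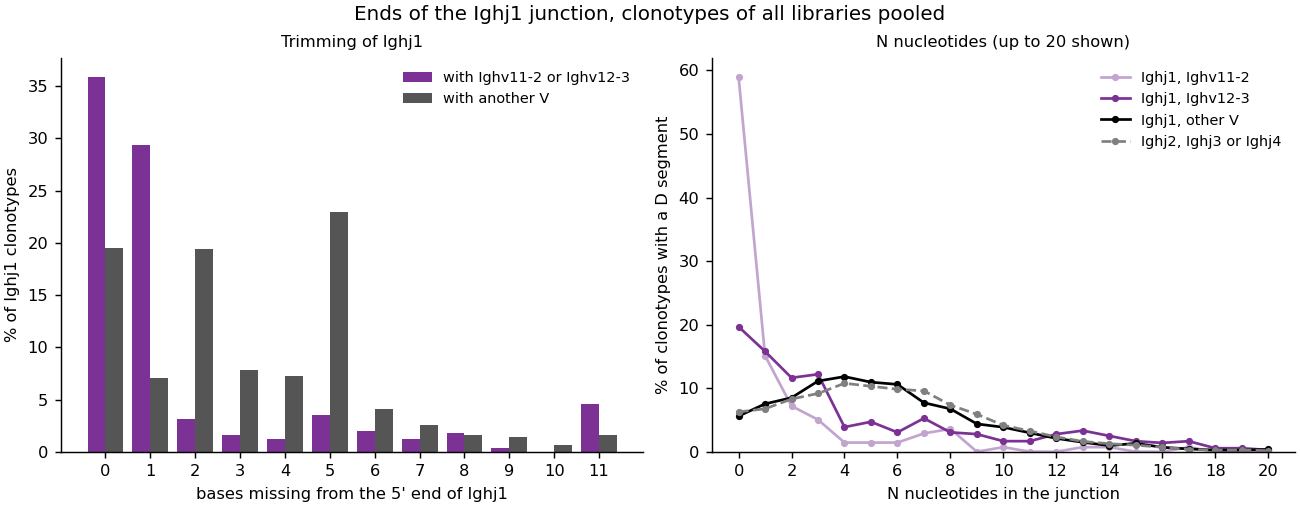
Left, % of Ighj1 clonotypes by the number of bases missing from the 5′ end of Ighj1, up to 11, for Ighv11-2 and Ighv12-3 together (507 clonotypes) and for other V segments (1174); right, % of clonotypes with a D segment by their number of N nucleotides, up to 20. The pair keeps the whole segment or lacks 1 base in most clonotypes (35.9% and 29.4%), other V segments peak at 0, 2 and 5 missing bases (19.5%, 19.4% and 23.0%).

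At the 5′ end of Ighj1, 411 of 1681 clonotypes (24.4%) kept every base. The share was 74.8% with Ighv11-2, 21.2% with Ighv12-3 and 19.5% with other V segments, and 24.9% of clonotypes with other J segments kept their whole J. With Ighv12-3 and Ighv11-2 together, 35.9% lacked no base and 29.4% lacked 1. With other V segments the numbers peaked at 0, 2 and 5 missing bases (19.5%, 19.4% and 23.0%), while 1, 3 and 4 were less frequent (7.07%, 7.84% and 7.24%). Bases shared by the end of D and the start of J are given to 1 of them by the annotation, so these numbers are of assigned bases. Ighj1 lacked 4.34 ± 0.813 assigned bases per clonotype in PBS extravascular and 3.29 ± 0.372 in PBS intravascular libraries (SD, n = 6), and 3.71 ± 0.903 and 3.00 ± 0.371 in those of UPEC mice (SD, n = 5). Pooled over libraries, missing bases had a mean of 4.82 and a median of 1 with Ighv12-3. With other V segments than the pair they had a mean of 3.68 and a median of 3. Means thus carry clonotypes with many missing bases, and fractions were not tested for this measure. Against the other J segments of the same library the number lost differed by -0.403 in PBS intravascular libraries (5 of 6 mice lower, exact signed-rank test, p = 0.0938) and by 0.114 in PBS extravascular libraries (p = 0.5625, same exact test; -0.343 without the pair). In UPEC mice it differed by -0.726 in intravascular libraries (4 of 5 lower, exact signed-rank test, p = 0.125) and by -0.509 in extravascular libraries (3 of 5 lower, p = 0.3125, same exact test). Without the pair, the PBS intravascular difference was -0.244 (4 of 6 mice lower, exact signed-rank test, p = 0.4375). The UPEC differences were then -0.431 in intravascular and -0.425 in extravascular libraries (each 4 of 5 lower, p = 0.125, same exact test).

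Without the pair, the mean length of the D segment between V and Ighj1 was 11.9 nt, against 10.6 nt with other J segments, in PBS extravascular libraries (6 of 6 mice longer, exact signed-rank test, p = 0.03125), 11.3 against 10.6 nt in PBS intravascular libraries (5 of 6, p = 0.0625, same exact test) and 11.2 against 10.6 nt in UPEC intravascular libraries (5 of 5, p = 0.0625, same exact test). In UPEC extravascular libraries it was 11.5 against 11.1 nt (2 of 5 mice longer, 3 shorter, exact signed-rank test, p = 0.8125). With all V segments, Ighj1 was not the longer in extravascular libraries. The means were 10.1 against 10.5 nt in PBS (2 of 6 mice longer) and 10.4 against 11.1 nt in UPEC mice (1 of 5 longer). In intravascular libraries they were 10.95 against 10.6 nt in PBS mice (5 of 6 longer) and 10.6 nt for both sets in UPEC mice (3 of 5 longer). With Ighv11-2 and Ighv12-3 the mean was 7.40 and 8.27 nt over all libraries. These p values were not adjusted, and this measure was chosen after seeing the data.

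The J region matched the germline exactly in 86.7% ± 19.8 of Ighj1 sequences in PBS extravascular and 93.2% ± 7.51 in PBS intravascular libraries (SD, n = 6), and in 95.4% ± 2.39 and 97.1% ± 2.41 in those of UPEC mice (SD, n = 5). The low PBS extravascular mean came from mouse 5, with 46.5%, and the other libraries of that group had 91.4% to 96.8%. In mouse 5, 147 of the 178 sequences of clonotype 4 carried T5C (positions counted from 1 at the 5′ end of Ighj1). In these the assigned J region began at position 3, before the stretch in capitals above. The other 31 had the same junction with a J region assigned from further in, exact in 16. Without this clonotype 90.2% of the library's Ighj1 sequences matched. The most widespread changes were T5G, in 39 sequences of 23 clonotypes and 11 libraries, and T47G, in 28 sequences of 27 clonotypes and 14 libraries. A26T was found in 20 sequences of the intravascular library of PBS mouse 3, 18 of them of 1 Ighv3-1 clonotype. Somatic mutation and errors of amplification or sequencing cannot be told apart in these counts. For T5C and T5G, near the 5′ end, N nucleotides read as J cannot be told apart from them either. Over clonotypes the exact share was 95.3% and 95.9% in PBS and 95.6% and 97.8% in UPEC mice, and 95.5%, 98.5%, 97.1% and 97.5% for the other J segments in the same order.

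Reads of Igha, the constant region of IgA, were found for 5 of the 5074 Ighj1 sequences: 0 of 2723 in PBS extravascular, 3 of 602 in PBS intravascular, 2 of 1131 in UPEC extravascular and 0 of 618 in UPEC intravascular libraries. None of the 5 used Ighv11-2 or Ighv12-3. With other J segments the counts were 129 of 5333, 7 of 2289, 146 of 2499 and 17 of 1983, most of the extravascular ones from PBS mouse 2 (112) and UPEC mouse 5 (135).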

How the data were processed

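B cell receptor heavy chains were amplified from RNA of sorted kidney B cells with a multiplex V primer mix and barcoded reverse transcription primers, and sequenced on MiSeq. Per the study's methods, the authors filtered reads with QUASR, merged pairs, formed barcode consensus sequences, matched V and J segments with BLAST, and removed sequences seen in 1 read. IMGT/V-QUEST then gave the annotation. The deposited tables have 1 line per sequence, all productive, and hold other values than expression: segment names, junction sequences, region lengths and positions, and read counts by constant region, of which only that of Igha could be assigned here. Multiplex primers amplify V segments unequally, so shares compare libraries and not abundances of V segments.

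Members and lists were chosen with earlier results of these data known. A clonotype was represented by its sequence with most reads. N nucleotides were summed over the joints of sequences with a D segment. Bases missing from J were counted against germline segments of GENCODE vM21. Named were the 4 J segments, Ighv11-2, Ighv12-3, the 10 V partners with most sequences and the 10 with most clonotypes, D segments with at least 2% of Ighj1 clonotypes, the 10 largest clonotypes and those of most mice, and the 5 V segments most like Ighj1.

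Libraries of a mouse were paired by the mouse number of the labels, which names the animal. Fractions were compared with exact two-sided Wilcoxon signed-rank tests (smallest p 0.03125 with 6 mice and 0.0625 with 5), treatments with exact Mann-Whitney U tests over 462 assignments (smallest p 0.004329), and the change of the fraction difference with an exact permutation test. P-values were adjusted by Benjamini-Hochberg over 12 measures, or over 32 tests of Ighj1 against other J segments. No adjusted p was below 0.05. Alternatives were reads in place of sequences, CDR3 amino acids, ambiguous names left out, at least 3 reads, 1 nt variants of sequences merged, N plus P nucleotides, a permutation test, no pairing and leaving out each mouse. Merging junctions 1 nt apart and leaving out the leading clonotype were added after seeing the data. The tests were checked on simulated data. The exact tests enumerated all sign flips or assignments with numpy 2.4.6, with ranks from scipy 1.17.1. Sequences were read with pandas 2.3.3 and junctions translated with biopython 1.88, under Python 3.11.15.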

Additional observations from a re-analysis of the deposited data

Results flagged for a closer look

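In 5 of 48 groups of libraries, 1 library lay far from the others by Dixon's test. Chance alone marks about 1 in 20 groups, or 2.4 of 48. The mean CDR3 length over Ighj1 clonotypes was 40.0408 nt in the extravascular library of PBS mouse 6, above the other 5, and 37.2472 nt in the intravascular library of PBS mouse 2, below the other 5. Without Ighv11-2 and Ighv12-3 it was 37.5974 nt in the intravascular library of PBS mouse 2, again the lowest, and 40.1667 nt in that of UPEC mouse 3, the highest of its group. The share of Ighj1 sequences with no N nucleotide was 44.856% in the intravascular library of UPEC mouse 4, the highest of its group. Clonotype 6, without N nucleotides, had 41 sequences in that library.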

How the results depend on the processing

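Over 60 results, 773 of the values under alternatives kept their direction and their side of the threshold, 60 turned in direction, 34 lost and 13 gained a p below 0.05. Differences below are in points for shares, nt for CDR3 length and numbers for N nucleotides; "other V" stands for values without Ighv11-2 and Ighv12-3, and the cause of a change was not tested. Of the 55 results with a p above 0.05, 48 moved by over 1.5 times or turned when 1 mouse was left out, and so did 1 of the 5 with a p below it, the PBS difference in sequences without N nucleotides. Leaving out a PBS mouse lost 20 of these p-values. For 12, signed-rank tests, this follows from the number of mice, since 5 cannot reach 0.05. The other 8 were exact Mann-Whitney U tests of intravascular treatment differences, which with 5 against 5 mice can reach 0.00794. The p-values gained came from the share of Ighv11-2 and Ighv12-3 among Ighj1 (8) and from Ighj1 shares with other V (5). Among them, the change with treatment in Ighj1 shares with other V was 11.1 of sequences and 9.19 of clonotypes without PBS mouse 5 (p = 0.0317 each, exact). For Ighv11-2 and Ighv12-3 among Ighj1 sequences, it was -47.9 without UPEC mouse 3 (p = 0.0429, exact), and the intravascular treatment difference was 16.4 without UPEC mouse 2 (p = 0.0381, exact) and 13.1 by the permutation test (p = 0.03896, exact).

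Without the replicate block, by unpaired exact Mann-Whitney U tests between fractions, no call changed: the PBS difference in the share of Ighv11-2 and Ighv12-3 among Ighj1 clonotypes was 35.4 (p = 0.00866), that in Ighj1 sequences without N nucleotides 27.9 (p = 0.0260), and those in the Ighj1 share of sequences 11.95 in PBS (p = 0.180) and 5.97 in UPEC mice (p = 0.0952).

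With at least 3 reads, the treatment difference in the Ighj1 share of clonotypes was 0.551544 (main value -1.4585) in extravascular and 0.0157058 (main value -0.632185) in intravascular libraries. Its change was 0.535838 (main value -0.826312). The treatment difference in the share of sequences with other V was 0.813614 (main value -0.3851) in intravascular libraries. That in Ighv11-2 and Ighv12-3 among intravascular Ighj1 clonotypes was 8.9658 (exact Mann-Whitney U test, p = 0.0519). CDR3 length with other V differed by 0.737031 between PBS fractions and 0.0932684 (main value -0.37347) between treatments in intravascular libraries, with a change of -1.04393 (main value 0.195917). N nucleotides differed by -0.0741698 between UPEC fractions and by -0.266768 between treatments in intravascular libraries (p = 0.502, exact), with a change of -0.10654 (main value 0.401788). With other V they differed by 0.0990724 between treatments in intravascular libraries, with a change of -0.380555 (main value 0.473083). The PBS fraction difference in sequences without N nucleotides was 26.4103 with at least 3 reads, 29.5772 by reads and 28.1697 without ambiguous names (p = 0.0625 each, exact).

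With junctions 1 nt apart merged, the treatment difference in the Ighj1 share of clonotypes was 0.0463291 in extravascular libraries and its change 1.31273, and the extravascular treatment difference in CDR3 length -0.113745. CDR3 length with other V differed by 0.193953 between PBS fractions, with a change of -0.302769. N nucleotides differed by -0.851144 between PBS fractions (p = 0.0625, exact) and by 0.237824 between treatments in extravascular libraries. With other V these differences were -0.555287 (main value 0.0697106) and 0.456235 (main value -0.0519386), and that between treatments in intravascular libraries was -0.465 (p = 0.0519, exact).

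With N plus P nucleotides, the PBS fraction difference was -0.169446, with other V -0.00380377, the extravascular treatment difference with other V 0.0361684 and the intravascular one -0.602 (p = 0.0823, exact). The UPEC fraction difference in the share of sequences with other V (main value 1.67268) was -0.310034 by reads and -0.536692 with 1 nt variants of sequences merged. The intravascular treatment difference in that share was 3.16345 by reads. By CDR3 amino acids, the intravascular treatment difference in Ighv11-2 and Ighv12-3 among clonotypes was 9.99696 (p = 0.0519, exact). Without ambiguous names, CDR3 length with other V differed by 0.108309 between UPEC fractions.

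Leaving out 1 mouse at a time, the treatment difference in the Ighj1 share of clonotypes ran from -3.98701 to 1.22007 in extravascular and from -1.68145 to 0.143818 in intravascular libraries, and its change from -3.20751 to 1.93924. The intravascular treatment difference in sequences with other V ran from -1.76496 to 0.395036. For Ighv11-2 and Ighv12-3, the UPEC fraction difference ran from -1.40083 (without mouse 3) to 23.0168 of sequences and from -0.930734 to 18.6603 of clonotypes, the PBS fraction difference of clonotypes from 26.8967 to 42.2892, the intravascular treatment difference from 8.18255 to 12.6833 and the change from -36.298 to -15.8635. CDR3 length ran from -1.01271 to 0.0232455 between UPEC fractions and from -0.065199 to 0.950641 between treatments in extravascular libraries. With other V it ran from -0.827807 to 0.033039 between PBS fractions, from -0.683854 to 0.188729 between UPEC fractions and from -0.626668 to 0.317157 between treatments in extravascular libraries, and its change from -0.329015 to 0.668884. N nucleotides ran from -0.224992 to 0.1299 between PBS fractions, and with other V from -0.400092 to 0.377396 between PBS fractions and from -0.31812 to 0.295153 between treatments in extravascular libraries. The share without N nucleotides ran from -0.179174 to 2.82232 of clonotypes and from -14.584 to 0.42105 of sequences between treatments in extravascular libraries, and from 18.5409 to 33.4694 of sequences between PBS fractions.

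The smallest library held 244 sequences, 69 of them of Ighj1, and differences within such a library's counting interval are not detectable.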
